A study of Manihot esculenta with 9 samples.

Results

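Leaves of HOE1, a transgenic line of cassava (Manihot esculenta), were compared with leaves of wild type (WT). HOE1 is 1 of a pair of lines made to overexpress the linker histone MeH1.2, and WT is the wild type that the labels set beside both lines. The groups were 2-month-old plants raised from stem segments in sterile bottles, without treatment, and each group had 3 libraries of total leaf RNA. The second line, HOE8, is used here only to set values side by side and for a direct test between the lines. The families and tests cover the genes that passed the count filter, 23434 of the 33033 genes in the table, of which 20118 carry a description. They were grouped into 111 families by the words of that description, and a gene can belong to several families. HOE1 is a single transgenic line, and the labels used here name neither the promoter nor the insertion site nor a time of collection. Whether the libraries of a group stand for separate plants is not given in the labels, so a p-value measures only how libraries of a group varied, and that variation may be technical.

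Linker histones bind the DNA that enters and leaves the nucleosome, and they help to fold the chromatin fibre and limit access to DNA. Plants carry several of them, and some are induced by drought or low light in Arabidopsis. A leaf of a tuber crop such as cassava fixes carbon, exports sucrose, makes a waxy cuticle and stores cyanogenic glucosides, which release hydrogen cyanide when tissue is damaged. Gene roles given below are those of the best Arabidopsis match unless cassava is named, and were not tested in cassava.

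Total counts were 14373319, 15497815 and 15717369 reads in HOE1, against 13923803, 14877089 and 16378389 reads in WT, so that 3 reads in a library were worth 0.176 to 0.212 CPM. CPM is the read count scaled to the TMM-adjusted library size, and a mean is given with its SD over 3 libraries. Replicates differed by more than counting noise but closely: the median chi-square per gene between libraries of a group was 0.649 to 0.679 in HOE1 and 0.685 to 0.843 in WT, where noise alone gives 0.455. In a principal component analysis of the 6 libraries, component 1 separated HOE1 from WT with 79.0% of the variance, against 5.65% for component 2. Differences were tested with edgeR's quasi-likelihood test at an adjusted p of 0.05, two-sided, and a gene past that threshold is called higher or lower.

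The linker histone genes check the label, although the labels do not say which gene is MeH1.2. Of 6 genes that match a linker histone, Manes.08G136300 showed the large excess. Manes.08G136300 (chromosome 8, 30254598 to 30255861; genome build not given in the sources used here) had 4567, 4538 and 4746 CPM in HOE1, against 154, 152 and 139.6 CPM in WT (log2 fold change 4.96 ± 0.07 (SE), edgeR adjusted p = 2.5e-11). All HOE1 libraries stood far above all WT libraries, and transgene and native reads of this gene cannot be told apart. Its span overlaps Manes.08G136400, and the sources used here do not say whether counting used strand, so reads of overlapping genes named below cannot be told apart. Among the other 5 linker-histone matches, Manes.01G144600 had 1137, 1189 and 1122 CPM in HOE1, against 553, 585 and 523 CPM in WT (log2 fold change 1.05 ± 0.07 (SE), edgeR adjusted p = 4.1e-07), with every HOE1 library again above every WT library. Manes.15G036800 and Manes.08G136200 were also higher, by 0.84 and 0.47 on the log2 scale, and Manes.05G086000 and Manes.01G224200 were not called, with log2 differences of 0.07 (edgeR adjusted p = 0.415) and 0.54 (edgeR adjusted p = 0.164).

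The tissue label was checked against markers matched by Arabidopsis gene. All 9 mesophyll matches had reads, and their summed level was 9371 to 9678 CPM in HOE1 leaves, against 3616 to 3972 CPM in WT leaves, with 5 of 8 tested higher and 1 lower. This list is made of rubisco small-chain, rubisco activase and antenna genes, so it is not separate from the photosynthesis results below. The root list summed to at most 12.5 CPM in HOE1 and 16.1 CPM in WT, and the flower list to at most 13.1 CPM in HOE1 and 15.5 CPM in WT, with 1 of 8 root and 3 of 14 flower matches at 0 reads in all 6 libraries. The seed list summed to 84.3 to 88.1 CPM in HOE1 and 81.2 to 85.7 CPM in WT. Markers of other cell types within the leaf did differ. Xylem markers summed to 25.8 to 29.6 CPM in HOE1 and 38.9 to 39.0 CPM in WT, with 1 of 9 tested higher and 5 lower. Epidermal markers summed to 48.3 to 54.3 CPM in HOE1 and 238 to 258 CPM in WT, and 3 of 4 tested were lower and 1 higher. Most of the WT sum, and most of the difference in the sum, came from a single gene, KCS6, whose values are given below. Phloem markers summed to 238 to 249.8 CPM in HOE1 and 314 to 331 CPM in WT, with 2 of 10 tested higher and 3 lower. Guard cell markers summed to 121 to 127 CPM in HOE1 and 111 to 115 CPM in WT, although 4 of 10 tested were higher and 5 lower. Shoot meristem markers, which include a KNOX gene, had 5 of 6 tested higher and 1 lower, at sums of 30.2 to 32.2 CPM in HOE1 and 22.2 to 22.5 CPM in WT. In bulk leaf RNA, fewer cells of a type and less RNA per cell cannot be told apart, and the part of these markers in the results below was not tested.

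Nearly a like number of genes lay on each side. 64.4% of the genes tested were called, 7417 higher (31.7%) and 7665 lower (32.7%), and the median log2 fold change over all genes tested was -0.0047, with quartiles of -0.51 and 0.45. At 2-fold or more, 1993 genes were higher (8.5%) and 2530 lower (10.8%). The HOE1 and WT libraries did not overlap in 73.3% of genes, with every HOE1 library above WT in 36.3% and below it in 37.0%. These shares are the background against which each family below is to be read. The balance differed with gene level and length. In the lowest quartile of mean level, 21.4% of genes were higher and 26.9% lower, and in the highest quartile 43.9% were higher and 31.7% lower. Among the shortest quartile of genes, up to 1132 bases, 24.7% were higher and 36.1% lower, whereas among the longest, from 2486 bases, 38.6% were higher and 25.2% lower. The median log2 fold change was -0.12 in the shortest quartile and 0.12 in the longest. The share called on the 18 chromosomes ran from 61.8% to 67.9%, and it was 58.8% on unplaced scaffolds.

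**Figure D1:**
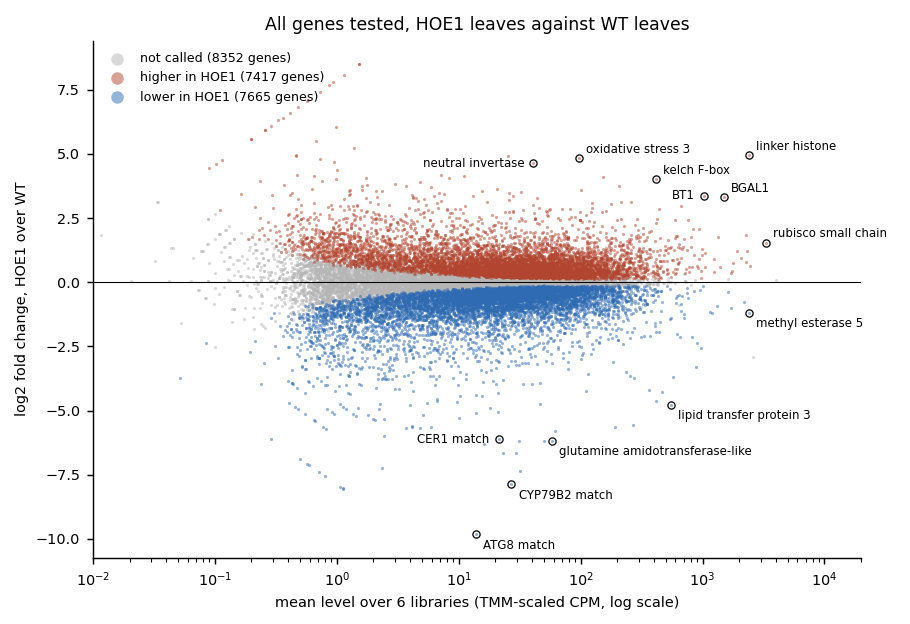
Log2 fold change of HOE1 over WT (vertical axis) against mean level in CPM over the 6 libraries (horizontal axis, log scale) for the 23434 genes tested, with genes called higher and lower in separate colours and the genes of the text's leading gains and losses named. The cloud is centred near 0, and the linker histone gene Manes.08G136300 is the highest point among genes above 1000 CPM.

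The genes with the largest gains in CPM had several roles. Manes.17G101400, an RNA-binding protein under clock control in Arabidopsis (CCR1), had 3555, 3012 and 3055 CPM in HOE1, against 1392, 1415 and 1357 CPM in WT (log2 fold change 1.21 ± 0.09 (SE), edgeR adjusted p = 6.3e-07). Asparagine synthetase, which stores nitrogen as asparagine when carbon is short, had in its leading copy Manes.02G212800 levels of 3522, 3468 and 3568 CPM in HOE1, against 1029, 976 and 968 CPM in WT (log2 fold change 1.83 ± 0.04 (SE), edgeR adjusted p = 1.3e-10). Manes.04G139200, matching the beta galactosidase BGAL1 of the cell wall, had 2721, 2711 and 2726 CPM in HOE1, against 278, 276 and 263 CPM in WT (log2 fold change 3.32 ± 0.07 (SE), edgeR adjusted p = 1.3e-10). In these genes every HOE1 library lay above every WT library, and the HOE1 libraries differed from each other by far less than from WT. Manes.14G056500, a BTB-domain scaffold protein (BT1), had 1863, 1858 and 1872 CPM in HOE1, against 180.3, 185 and 174 CPM in WT (log2 fold change 3.37 ± 0.08 (SE), edgeR adjusted p = 2.5e-10). Manes.15G006300, a beta xylosidase that trims wall polysaccharides (BXL1), had 2679.5, 2657 and 2678 CPM in HOE1, against 1169, 1098 and 1138 CPM in WT (log2 fold change 1.23 ± 0.08 (SE), edgeR adjusted p = 1.6e-07). A second BGAL1 match, Manes.16G102400, averaged 2714 ± 34.1 CPM in HOE1 and 1411 ± 6.13 CPM in WT. After the linker histone, the largest gain in CPM was in the rubisco small-chain gene Manes.01G011500, with 5131, 4659 and 4872 CPM in HOE1, against 1812, 1683 and 1565 CPM in WT (log2 fold change 1.53 ± 0.08 (SE), edgeR adjusted p = 3.8e-08). Close copies such as the rubisco and BGAL1 genes may have shared reads.

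By fold, among described genes with at least 5 CPM in HOE1, a separate set of genes led the gains. Manes.10G149500, a beta glucosidase, had 49.2, 49.5 and 48.6 CPM in HOE1, against 1.65, 1.81 and 1.41 CPM in WT (log2 fold change 4.92 ± 0.08 (SE), edgeR adjusted p = 3.7e-11). OXIDATIVE STRESS 3, a factor of heavy-metal tolerance in Arabidopsis, had in Manes.16G107900 levels of 186, 184 and 187 CPM in HOE1, against 6.38, 6.08 and 7.04 CPM in WT (log2 fold change 4.83 ± 0.10 (SE), edgeR adjusted p = 1.1e-10). A neutral invertase, which splits sucrose into glucose and fructose, had in Manes.08G109700 levels of 76.2, 81.9 and 78.0 CPM in HOE1, against 3.57, 2.46 and 3.46 CPM in WT (log2 fold change 4.63 ± 0.10 (SE), edgeR adjusted p = 1.3e-10). These genes were taken among those whose groups do not overlap, so the separation of their libraries is a description. Manes.09G040100, matching a kelch F-box protein, had 797, 785 and 757 CPM in HOE1, against 46.4, 52.4 and 45.8 CPM in WT (log2 fold change 4.02 ± 0.09 (SE), edgeR adjusted p = 1.3e-10). Manes.16G028500, a protein of unknown function (DUF506), averaged 384 ± 1.33 CPM in HOE1 and 28.5 ± 0.603 CPM in WT (log2 fold change 3.75 ± 0.10 (SE), edgeR adjusted p = 3.3e-10). The cupin Manes.05G079100, matching a vicilin-type storage protein, had 288, 294 and 277 CPM in HOE1, against 17.4, 17.1 and 16.02 CPM in WT (log2 fold change 4.09 ± 0.07 (SE), edgeR adjusted p = 5.0e-11), and it was one of 3 neighbouring cupin copies described further below. The others of the 12 leading gains by fold, the linker histone gene among them, had log2 fold changes between 3.83 and 4.96.

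**Figure D2:**
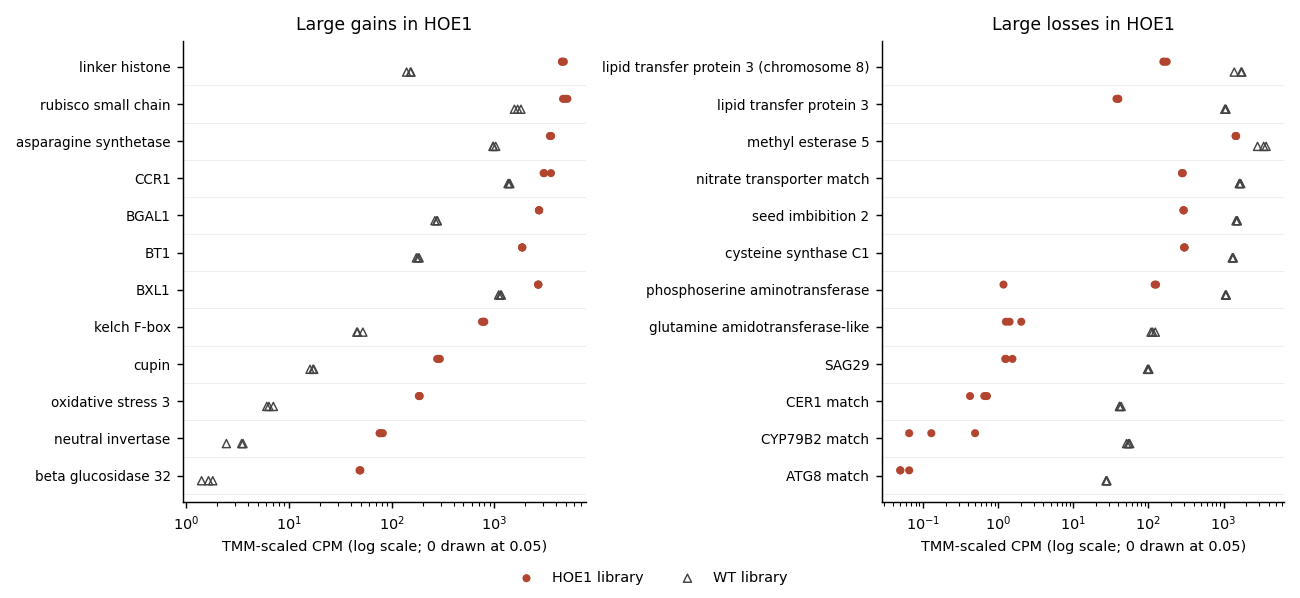
TMM-scaled CPM (horizontal axis, log scale) in single libraries for 12 genes with large gains (left panel) and 12 with large losses (right panel), with filled circles for HOE1 libraries, open triangles for WT libraries and values of 0 drawn at 0.05. The gap between HOE1 and WT follows from how the genes were chosen, and in phosphoserine aminotransferase 1 HOE1 library lies far below the other 2.

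The genes with the largest losses in CPM likewise had several roles, among them lipid transfer, cyanide detoxification, raffinose breakdown and nitrate transport. Lipid transfer protein 3, of a family thought to carry lipids to the cuticle, had in Manes.08G171900 levels of 175, 158 and 162 CPM in HOE1, against 1712, 1755 and 1389.5 CPM in WT (log2 fold change -3.29 ± 0.11 (SE), edgeR adjusted p = 1.9e-09). Its second leading copy, Manes.14G166500, had 39.4, 37.6 and 39.8 CPM in HOE1, against 1042, 1055 and 1079.6 CPM in WT (log2 fold change -4.76 ± 0.08 (SE), edgeR adjusted p = 3.7e-11). A methyl esterase match, Manes.13G092100, whose Arabidopsis counterpart is a hydroxynitrile lyase, had 1474, 1458 and 1448 CPM in HOE1, against 2836, 3424 and 3687 CPM in WT (log2 fold change -1.18 ± 0.09 (SE), edgeR adjusted p = 1.2e-06). HOE1 was below WT in every library of each. Seed imbibition 2, an enzyme that cleaves raffinose, had in Manes.08G049600 levels of 292, 295 and 296 CPM in HOE1, against 1520.3, 1521 and 1465 CPM in WT (log2 fold change -2.35 ± 0.05 (SE), edgeR adjusted p = 1.1e-10). Cysteine synthase C1, which detoxifies cyanide in mitochondria, had in Manes.05G033000 levels of 305, 298 and 300.8 CPM in HOE1, against 1313, 1352 and 1314 CPM in WT (log2 fold change -2.14 ± 0.05 (SE), edgeR adjusted p = 2.3e-10). Manes.13G067000, matching a nitrate transporter of the major facilitator type, had 281, 287 and 280.4 CPM in HOE1, against 1629, 1627 and 1695 CPM in WT (log2 fold change -2.54 ± 0.04 (SE), edgeR adjusted p = 4.6e-11). A polyubiquitin gene, Manes.17G035300, averaged 1129.8 ± 29.0 CPM in HOE1 and 2286 ± 121 CPM in WT. The cysteine protease gene Manes.18G041100 averaged 1601 ± 29.97 CPM in HOE1 and 2758 ± 55.9 CPM in WT. Phosphoserine aminotransferase, an enzyme of serine synthesis, had in Manes.02G112800 levels of 127, 1.18 and 121 CPM in HOE1, against 1067, 1060.4 and 1089.7 CPM in WT (log2 fold change -3.69 ± 0.94 (SE), edgeR adjusted p = 0.0051): HOE1 library 2 lay far below the other HOE1 libraries, and all 3 lay below WT. Without that library its log2 fold change was -3.11.

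By fitted fold, the largest loss among the genes tested was in Manes.01G233100, which matches the autophagy protein ATG8. It had 0, 0.0656 and 0 CPM in HOE1, against 27.5, 27.4 and 28.1 CPM in WT, from 1 read in HOE1 in all, so WT was 1243-fold above HOE1 with a 95% counting interval of 223 to 49137. In the autophagy family as a whole, 13 of 17 tested members were higher, 2 lower and 2 not called, with a median log2 fold change of 0.47. SAG29, a sugar exporter of senescing leaves, had in Manes.13G006800 levels of 1.27, 1.25 and 1.55 CPM in HOE1, against 97.4, 101.7 and 98.8 CPM in WT (log2 fold change -6.18 ± 0.14 (SE), edgeR adjusted p = 1.3e-10). Manes.01G202400, a glutamine amidotransferase-like protein, had 1.27, 2.03 and 1.42 CPM in HOE1, against 124, 114 and 108 CPM in WT (log2 fold change -6.18 ± 0.17 (SE), edgeR adjusted p = 4.3e-10). These genes too were taken among those without overlap between groups. Manes.05G060000, matching the wax alkane enzyme CER1, had 0.424, 0.656 and 0.711 CPM in HOE1, against 41.2, 43.5 and 41.6 CPM in WT (log2 fold change -6.11 ± 0.14 (SE), edgeR adjusted p = 1.4e-10). Manes.07G006700, a pectin lyase-like protein whose match separates pollen cells in Arabidopsis, averaged 0.132 ± 0.0617 CPM in HOE1 and 7.20 ± 0.552 CPM in WT. The endoglucanase-type gene Manes.02G017000 averaged 0.854 ± 0.249 CPM in HOE1 and 61.6 ± 1.02 CPM in WT.

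**Figure D3:**
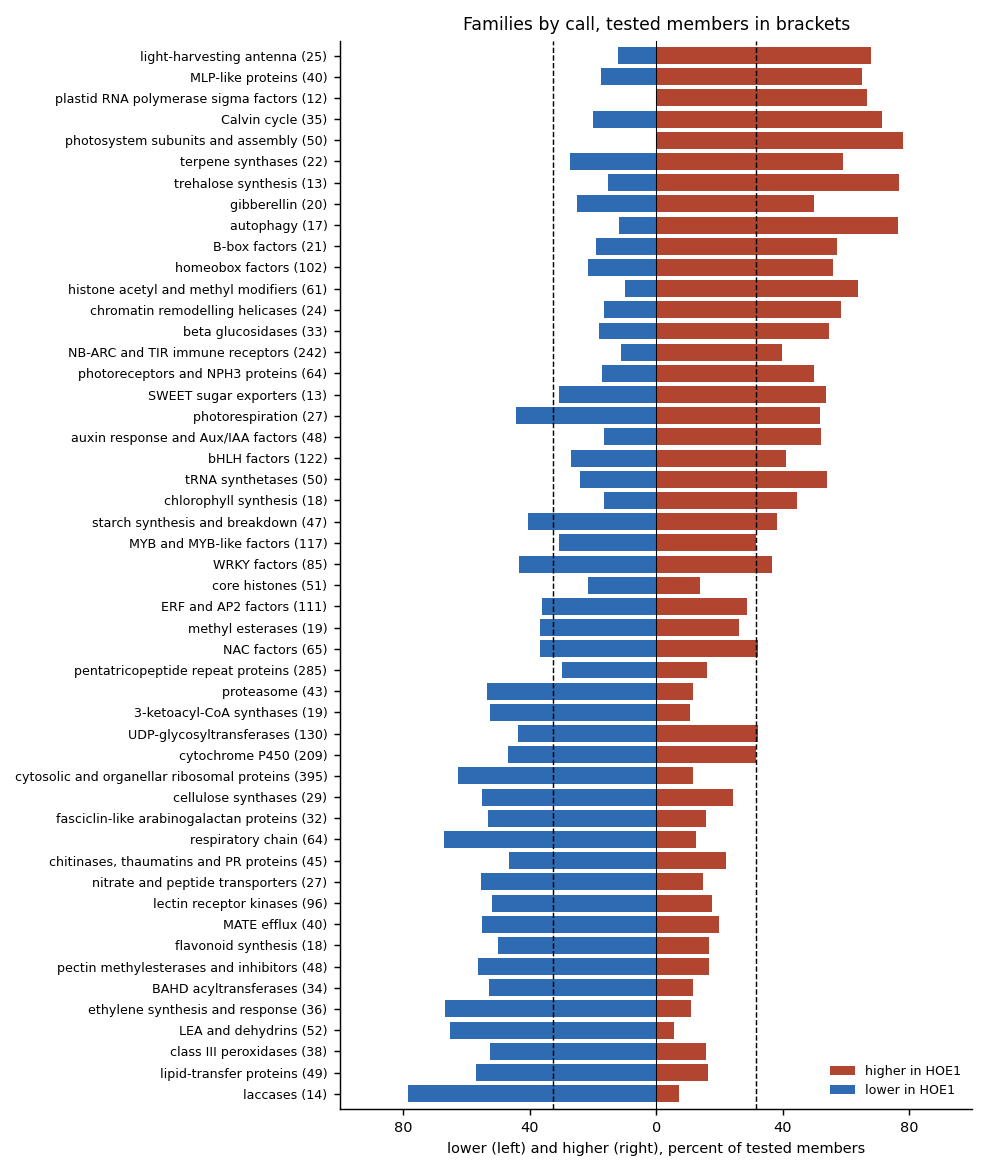
Share of tested members called higher (bars to the right) and lower (bars to the left) in HOE1 for the families of the text, in percent, ordered by median log2 fold change; the dashed lines mark the shares over all genes tested, 31.7% and 32.7%. Photosystem subunits have the longest bar to the right and no bar to the left, and laccases have the longest bar to the left.

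Genes of the photosynthetic apparatus were mostly higher. Of the 62 genes described as photosystem subunits or assembly factors, 50 were tested, and 39 of 50 tested members were higher, 0 lower and 11 not called, with a median log2 fold change of 0.74. Their summed level was 11899 ± 263 CPM in HOE1 and 6233 ± 180.3 CPM in WT. Photosystem II subunit R, which had the highest mean CPM, had in Manes.15G102500 levels of 1026, 1089 and 1066 CPM in HOE1, against 453, 447 and 431 CPM in WT (log2 fold change 1.26 ± 0.06 (SE), edgeR adjusted p = 2.9e-08). Photosystem I subunit K, Manes.06G061100, averaged 64.3 ± 4.42 CPM in HOE1 and 18.6 ± 1.46 CPM in WT. Photosystem I subunit N, Manes.12G156000, averaged 36.2 ± 1.56 CPM in HOE1 and 8.17 ± 1.08 CPM in WT. The span of Manes.12G156000 overlaps Manes.12G156100. For the light-harvesting antenna, which gathers light for both photosystems, 17 of 25 tested members were higher, 3 lower and 5 not called, with a median of 1.11. Its member with the highest mean CPM, Manes.08G091700, averaged 473 ± 13.2 CPM in HOE1 and 141 ± 7.43 CPM in WT. Manes.01G175600 averaged 11.3 ± 0.261 CPM in HOE1 and 26.3 ± 1.04 CPM in WT and was lower. Manes.17G066700, a chlorophyll a/b binding protein, had 55.5, 57.8 and 54.7 CPM in HOE1, against 13.5, 15.6 and 2.76 CPM in WT (log2 fold change 2.41 ± 0.56 (SE), edgeR adjusted p = 0.0029), and WT library 3 lay far below the other WT libraries. Without it the log2 fold change was 1.94. In chlorophyll synthesis, 8 of 18 tested members were higher, 3 lower and 7 not called: the magnesium chelatase subunit Manes.08G050600 averaged 155 ± 4.52 CPM in HOE1 and 26.6 ± 1.15 CPM in WT. GENOMES UNCOUPLED 1, Manes.05G014100, a plastid signalling protein, averaged 201.3 ± 7.18 CPM in HOE1 and 299 ± 8.67 CPM in WT.

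Carbon fixation leaned higher too, and its side path, photorespiration, was split. In the Calvin cycle, 25 of 35 tested members were higher, 7 lower and 3 not called, and the summed level was 15424 ± 293 CPM in HOE1 and 7215 ± 169 CPM in WT. Rubisco activase, which keeps rubisco open for its substrate, had in Manes.10G027600 levels of 2004, 2081 and 2056 CPM in HOE1, against 586, 617 and 616 CPM in WT (log2 fold change 1.76 ± 0.04 (SE), edgeR adjusted p = 1.1e-10). A glyceraldehyde-3-phosphate dehydrogenase subunit, Manes.05G125200, averaged 111 ± 4.97 CPM in HOE1 and 34.4 ± 2.77 CPM in WT. A cytosolic-type phosphoglycerate kinase match, Manes.14G008900, averaged 20.1 ± 2.24 CPM in HOE1 and 38.9 ± 1.85 CPM in WT and was lower. Photorespiration, which recycles the product of rubisco's reaction with oxygen, had 14 of 27 tested members higher and 12 lower, so its share of lower genes was also above the background. Its summed level was 6564 ± 42.0 CPM in HOE1 and 2944 ± 27.2 CPM in WT. Alanine:glyoxylate aminotransferase of the peroxisome had in Manes.02G141600 levels of 1487, 1531 and 1541 CPM in HOE1, against 354, 363 and 368 CPM in WT (log2 fold change 2.07 ± 0.04 (SE), edgeR adjusted p = 5.6e-11), and serine hydroxymethyltransferase 4, a cytosolic form, averaged 40.7 ± 3.05 CPM in HOE1 and 80.6 ± 2.91 CPM in WT in Manes.15G056800. Carotenoid synthesis was mixed, with 11 higher and 7 lower of 21: a lycopene cyclase gene, Manes.12G071600, averaged 73.8 ± 1.67 CPM in HOE1 and 37.5 ± 3.61 CPM in WT. A phytoene desaturase match, Manes.11G097600, averaged 12.6 ± 0.509 CPM in HOE1 and 30.2 ± 2.05 CPM in WT.

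Regulators of light responses were among the higher families. For B-box factors, zinc-finger proteins that act in light and clock signalling, 12 of 21 tested members were higher, 4 lower and 5 not called, and the summed level was 2050.4 ± 13.2 CPM in HOE1 and 512 ± 2.81 CPM in WT. Most of that sum came from Manes.14G102400, which had 1182, 1178 and 1162 CPM in HOE1, against 151, 149 and 150.0 CPM in WT (log2 fold change 2.97 ± 0.05 (SE), edgeR adjusted p = 3.7e-11), and from its relative Manes.06G068600, with 474, 465 and 467 CPM in HOE1, against 57.1, 55.3 and 48.4 CPM in WT (log2 fold change 3.13 ± 0.09 (SE), edgeR adjusted p = 5.2e-10). HOE1 libraries stood apart from WT in both, whereas Manes.13G073800 averaged 1.62 ± 0.368 CPM in HOE1 and 15.6 ± 1.47 CPM in WT and was lower. In the family of photoreceptors and NPH3 proteins, which relay blue and red light, 32 of 64 tested members were higher, 11 lower and 21 not called. Phototropin 1, a blue-light receptor, had in Manes.11G138200 levels of 607, 616 and 618 CPM in HOE1, against 198, 201.4 and 200.4 CPM in WT (log2 fold change 1.62 ± 0.08 (SE), edgeR adjusted p = 3.4e-08). Phytochrome-interacting factor 7, Manes.14G083200, averaged 336 ± 2.40 CPM in HOE1 and 62.8 ± 3.25 CPM in WT. An NPH3 protein, Manes.12G022400, averaged 209 ± 1.65 CPM in HOE1 and 31.8 ± 1.07 CPM in WT. Of genes whose description names a sigma factor of the plastid RNA polymerase, 8 of 12 tested members were higher, 0 lower and 4 not called, a list that also holds sigma factor binding proteins. Sigma factor E, Manes.06G157400, averaged 9.56 ± 0.730 CPM in HOE1 and 3.49 ± 0.568 CPM in WT. Clock genes moved beside these families. Of 13 morning clock matches, 12 were higher and 0 lower, at sums of 679 to 718 CPM in HOE1 and 372 to 396 CPM in WT; of 15 evening matches, 8 were higher and 2 lower, at sums of 1712 to 1752 CPM in HOE1 and 1300.3 to 1306 CPM in WT. GIGANTEA, Manes.18G095000, an evening gene, had 472, 462 and 464 CPM in HOE1, against 488, 479 and 475 CPM in WT and was not called (edgeR adjusted p = 0.643). The 3 clock output matches gave 2 higher and 1 lower, at sums of 39.97 to 47.7 CPM in HOE1 and 41.9 to 44.4 CPM in WT. The part of the clock genes in the results was not tested.

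Sugar and starch genes changed in both directions. For starch synthesis and breakdown, 18 of 47 tested members were higher, 19 lower and 10 not called. The plastid alpha-amylase match Manes.05G097100 had 918, 913 and 899 CPM in HOE1, against 357, 351 and 353 CPM in WT (log2 fold change 1.36 ± 0.06 (SE), edgeR adjusted p = 1.4e-08), and a beta-amylase, Manes.15G060100, averaged 176 ± 4.46 CPM in HOE1 and 48.2 ± 0.809 CPM in WT. A secreted-type alpha-amylase match, Manes.18G037100, averaged 29.8 ± 3.14 CPM in HOE1 and 89.3 ± 1.77 CPM in WT and was lower. In sucrose metabolism, 14 of 45 tested members were higher, 13 lower and 18 not called. Beside the neutral invertase above, sucrose synthase 4, Manes.16G090600, averaged 374 ± 6.22 CPM in HOE1 and 125 ± 1.42 CPM in WT. Sucrose synthase 6, Manes.01G123800, averaged 17.4 ± 0.700 CPM in HOE1 and 48.6 ± 2.84 CPM in WT. In the trehalose family, whose trehalose-6-phosphate signals sucrose supply, 10 of 13 tested members were higher, 2 lower and 1 not called, with summed levels of 2481 ± 68.9 CPM in HOE1 and 1625 ± 13.7 CPM in WT. Among SWEET exporters, which release sugar from cells, 7 of 13 tested members were higher, 4 lower and 2 not called; Manes.17G062900 averaged 91.8 ± 5.21 CPM in HOE1 and 14.8 ± 1.02 CPM in WT. Manes.14G047700 averaged 5.69 ± 0.614 CPM in HOE1 and 48.4 ± 3.29 CPM in WT.

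Nitrate transporters leaned lower, and other transporters were mixed. Of nitrate and peptide transporters, 4 of 27 tested members were higher, 15 lower and 8 not called, with a median of -0.54. Nitrate transporter 1.7, which loads nitrate into the phloem of old leaves, had in Manes.05G095700 levels of 128, 128 and 126 CPM in HOE1, against 535, 548 and 536 CPM in WT (log2 fold change -2.09 ± 0.05 (SE), edgeR adjusted p = 3.0e-10), and nitrate transporter 1.5, Manes.05G061100, averaged 14.4 ± 0.696 CPM in HOE1 and 91.9 ± 2.37 CPM in WT. An oligopeptide transporter, Manes.09G082900, averaged 296 ± 5.37 CPM in HOE1 and 93.4 ± 9.37 CPM in WT and was higher. The MATE efflux family, which moves metabolites and toxins out of the cytosol, had a median of -0.57, as 8 of 40 tested members were higher, 22 lower and 10 not called. Manes.02G142000 averaged 0.221 ± 0.0689 CPM in HOE1 and 11.7 ± 1.07 CPM in WT; it matches a vacuolar transporter of tannin precursors and overlaps Manes.02G141900. Phosphate transporter 1;7, Manes.03G164600, averaged 5.88 ± 0.132 CPM in HOE1 and 39.9 ± 2.64 CPM in WT. Phosphate transporter 4;1 of plastids, Manes.02G121100, averaged 179 ± 6.07 CPM in HOE1 and 77.3 ± 3.08 CPM in WT. Of ABC transporters, 23 of 73 tested members were higher, 23 lower and 27 not called: multidrug resistance-associated protein 4, Manes.05G063200, averaged 426 ± 1.72 CPM in HOE1 and 917 ± 11.7 CPM in WT. Pleiotropic drug resistance 12, Manes.03G018600, averaged 7.64 ± 0.110 CPM in HOE1 and 0.722 ± 0.236 CPM in WT. Aquaporins gave 11 higher and 13 lower of 28.

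Several families of the leaf surface and the cell wall leaned lower, and others lay near the background. Of 105 lipid-transfer genes, 49 were tested, and 8 of 49 tested members were higher, 28 lower and 13 not called; the median was -1.06 and the summed level 1105 ± 23.8 CPM in HOE1 and 5994 ± 271 CPM in WT. In the list of 3-ketoacyl-CoA synthases, which lengthen fatty acids for wax and which here also holds thiolases, 2 of 19 tested members were higher, 10 lower and 7 not called. KCS6, the main wax elongase of the Arabidopsis stem, had in Manes.14G102100 levels of 17.3, 18.8 and 17.1 CPM in HOE1, against 216, 202.3 and 221 CPM in WT (log2 fold change -3.59 ± 0.06 (SE), edgeR adjusted p = 5.0e-11), without overlap. KCS10, Manes.03G055800, averaged 56.5 ± 1.21 CPM in HOE1 and 40.8 ± 1.76 CPM in WT and was higher. Laccases, copper enzymes of which some polymerise lignin, gave 11 of 14 tested members lower and 1 higher (2 without WT library 1 and 0 in a fit of HOE1 and WT libraries only), with sums of 53.6 ± 2.28 CPM in HOE1 and 297 ± 9.06 CPM in WT. Manes.08G083300 had 35.2, 34.8 and 37.6 CPM in HOE1, against 226, 214 and 208 CPM in WT (log2 fold change -2.59 ± 0.06 (SE), edgeR adjusted p = 2.5e-10) and made up most of the summed CPM. Class III peroxidases, secreted enzymes of wall cross-linking, had a median of -0.95: 6 of 38 tested members were higher, 20 lower and 12 not called. Manes.02G182500 averaged 203.3 ± 4.26 CPM in HOE1 and 605 ± 19.6 CPM in WT. Manes.03G084300 averaged 208 ± 9.72 CPM in HOE1 and 63.7 ± 2.03 CPM in WT, so members with many reads lay on both sides.

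Wall-modifying enzymes followed a like pattern with exceptions. Of pectin methylesterases and their inhibitors, 8 of 48 tested members were higher, 27 lower and 13 not called. Manes.17G081100 had 10.9, 12.001 and 10.2 CPM in HOE1, against 208, 215 and 209 CPM in WT (log2 fold change -4.25 ± 0.09 (SE), edgeR adjusted p = 1.0e-10), while pectin methylesterase 61, Manes.04G053900, which overlaps Manes.04G054000, averaged 72.3 ± 1.20 CPM in HOE1 and 11.2 ± 0.848 CPM in WT and was higher. For fasciclin-like arabinogalactan proteins, which sit at the outer face of the cell, 5 of 32 tested members were higher, 17 lower and 10 not called, with 2 higher when HOE1 library 3 was left out and 3 without HOE1 library 2, WT library 1 or WT library 3. For cellulose synthases, 7 of 29 tested members were higher, 16 lower and 6 not called. Among xyloglucan endotransglucosylases, which cut and rejoin wall xyloglucan, 8 of 29 tested members were higher, 14 lower and 7 not called: Manes.05G199600 averaged 99.5 ± 2.30 CPM in HOE1 and 378 ± 15.3 CPM in WT. Manes.11G115200 averaged 30.2 ± 1.25 CPM in HOE1 and 9.05 ± 1.02 CPM in WT. Expansins, which loosen the wall, gave 11 higher and 15 lower of 30. Expansin-like B1, Manes.02G044700, averaged 3.62 ± 0.618 CPM in HOE1 and 37.1 ± 1.55 CPM in WT. Expansin A13, Manes.10G063600, averaged 10.7 ± 0.183 CPM in HOE1 and 3.67 ± 0.448 CPM in WT. Of 29 dirigent genes, which steer the coupling of lignans, 9 were tested, 1 was higher and 6 were lower. Near the background were pectin lyases and polygalacturonases, which cut pectin, with 15 higher and 17 lower of 51. GDSL lipases, some of which build cutin, gave 15 higher and 17 lower of 48. The list of wax and cutin factors gave 3 higher and 5 lower of 9. The xylem and epidermal markers given above moved beside these families but are not a wholly separate set of genes. KCS6, which gave most of the epidermal sum in WT and most of its difference from HOE1, is in both. The xylem list includes Arabidopsis cellulose synthase genes, so matches of these may be in both too. The part of these markers was not tested.

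**Figure D4:**
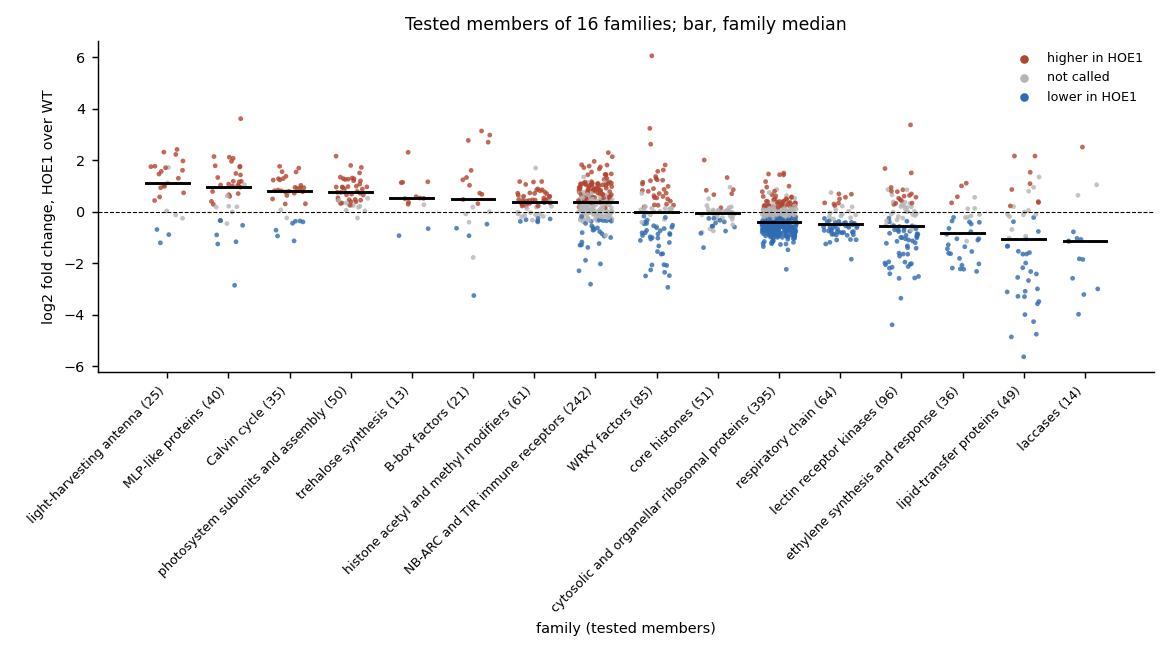
Log2 fold change of HOE1 over WT (vertical axis) of every tested member of 16 families, 1 point a gene, with a bar at each family's median and points coloured by call; the dashed line marks 0. The photosystem points lie almost wholly above 0, the lipid-transfer points mostly below, and the ribosomal points form a narrow band under 0.

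Single genes of specialised metabolism were close to 0 reads in HOE1. The CYP79B2 match Manes.12G133500, of the family whose cassava members start cyanogenic glucoside synthesis from amino acids, had 0.494, 0.0656 and 0.129 CPM in HOE1, against 54.2, 56.3 and 51.2 CPM in WT (log2 fold change -7.86 ± 0.24 (SE), edgeR adjusted p = 9.0e-10). This gene passed the count filter through its WT libraries alone, as HOE8 was low too, and the adjusted p adds no support beyond that. HOE1 library 1 was the highest of the HOE1 libraries, and without it the log2 fold change was -8.99. Matches of CYP83B1, an oxime-metabolising P450, were as low: Manes.05G139600 had 0.353, 0.328 and 0.453 CPM in HOE1, against 66.4, 60.3 and 62.5 CPM in WT. Manes.05G139700 averaged 0.445 ± 0.0709 CPM in HOE1 and 45.6 ± 6.39 CPM in WT. Manes.05G150000 averaged 0.580 ± 0.105 CPM in HOE1 and 58.5 ± 3.95 CPM in WT. These copies all lie on chromosome 5 and may have shared reads. In the P450 family as a whole, 66 of 209 tested members were higher, 98 lower and 45 not called, with a median of -0.39, and members lay on both sides: CYP81D-type Manes.13G116700 averaged 809 ± 10.2 CPM in HOE1 and 427 ± 9.46 CPM in WT. CYP71B-type Manes.12G140800 averaged 47.8 ± 2.41 CPM in HOE1 and 4.32 ± 0.764 CPM in WT. Of methyl esterases, whose list holds the hydroxynitrile lyase match, 5 of 19 tested members were higher, 7 lower and 7 not called, with 3 higher when HOE1 library 2 or WT library 1 was left out. Manes.12G095700 had 57.1, 62.3 and 59.9 CPM in HOE1, against 269, 279 and 279 CPM in WT (log2 fold change -2.20 ± 0.06 (SE), edgeR adjusted p = 3.3e-10). Beta glucosidases, the class of the cassava enzyme that cuts cyanogenic glucosides, had more members higher: 18 of 33 tested members were higher, 6 lower and 9 not called. Their summed level was 1148 ± 6.21 CPM in HOE1 and 1256 ± 2.73 CPM in WT, so the sum was lower in HOE1. Manes.10G150200 averaged 72.9 ± 1.53 CPM in HOE1 and 315 ± 5.42 CPM in WT and was lower, against the large gain of Manes.10G149500 on the same chromosome.

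Flavonoid genes leaned lower. Of flavonoid genes, 3 of 18 tested members were higher, 9 lower and 6 not called. Dihydroflavonol 4-reductase, which leads to anthocyanins and tannins, had in Manes.18G022300 levels of 3.25, 3.08 and 3.62 CPM in HOE1, against 85.1, 93.7 and 88.0 CPM in WT (log2 fold change -4.74 ± 0.10 (SE), edgeR adjusted p = 1.2e-10). Leucoanthocyanidin dioxygenase, the next enzyme, averaged 0.494 ± 0.158 CPM in HOE1 and 19.5 ± 1.605 CPM in WT in Manes.01G070200. A second dihydroflavonol 4-reductase copy, Manes.05G157000, had 83.0, 75.9 and 81.6 CPM in HOE1, against 84.4, 85.3 and 88.2 CPM in WT and was not called (edgeR adjusted p = 0.113). The bHLH factor Manes.01G208400, matching the tannin regulator TT8, averaged 0.179 ± 0.0439 CPM in HOE1 and 9.46 ± 1.17 CPM in WT. The MYB5 match Manes.03G052800 averaged 7.24 ± 1.24 CPM in HOE1 and 43.4 ± 2.33 CPM in WT. In the phenylpropanoid entry, phenylalanine ammonia lyase Manes.04G018000, which overlaps Manes.04G018100, averaged 0.527 ± 0.320 CPM in HOE1 and 12.7 ± 2.06 CPM in WT. The hydroxycinnamoyl transferase Manes.11G067800 averaged 80.9 ± 1.25 CPM in HOE1 and 10.8 ± 0.517 CPM in WT. BAHD acyltransferases, which decorate such products, had 18 of 34 lower and 4 higher. Terpene synthases, makers of volatile and hormone precursors, leaned higher: 13 of 22 tested members were higher, 6 lower and 3 not called, with a median of 0.73 (0.47 in a fit of HOE1 and WT libraries only). Terpene synthase 21, Manes.02G086300, had 61.3, 59.5 and 58.4 CPM in HOE1, against 4.39, 6.08 and 5.34 CPM in WT (log2 fold change 3.50 ± 0.09 (SE), edgeR adjusted p = 3.9e-10), and a terpenoid cyclase matching the gibberellin-pathway enzyme kaurene synthase, Manes.16G000900, averaged 38.2 ± 1.05 CPM in HOE1 and 121 ± 3.68 CPM in WT. Of UDP-glycosyltransferases, 42 of 130 tested members were higher, 57 lower and 31 not called.

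Defence genes did not move as a block. The intracellular immune receptors of the NB-ARC and TIR classes leaned higher: of 294 such genes, 242 were tested, and 96 of 242 tested members were higher, 27 lower and 119 not called, with sums of 3932 ± 43.2 CPM in HOE1 and 2972 ± 28.3 CPM in WT. Manes.18G112200 averaged 15.8 ± 0.134 CPM in HOE1 and 3.59 ± 0.161 CPM in WT. Manes.06G108800 averaged 11.03 ± 1.302 CPM in HOE1 and 29.0 ± 1.89 CPM in WT. Many of these receptors are close copies whose reads may be split. MLP-like proteins, small carriers of hydrophobic ligands related to hormone receptors, had 26 of 40 higher and 7 lower, with a median of 0.97 and sums of 2039 ± 25.9 CPM in HOE1 and 1284 ± 5.23 CPM in WT. MLP-like protein 31, Manes.02G075500, averaged 87.0 ± 5.95 CPM in HOE1 and 19.8 ± 0.5001 CPM in WT. Receptor kinases of the cell surface are given by class. Of lectin receptor kinases, 17 of 96 tested members were higher, 50 lower and 29 not called. Leucine-rich repeat receptor kinases gave 54 higher and 84 lower of 214, and cysteine-rich receptor kinases 9 higher and 9 lower of 31. Among the lectin class, Manes.11G007900 averaged 1.24 ± 0.317 CPM in HOE1 and 26.4 ± 0.678 CPM in WT. Manes.13G076300 averaged 11.5 ± 2.57 CPM in HOE1 and 1.11 ± 0.199 CPM in WT. For chitinases, thaumatins and other pathogenesis-related proteins, 10 of 45 tested members were higher, 21 lower and 14 not called: the chitinase gene Manes.11G128300 had 21.9, 22.9 and 22.5 CPM in HOE1, against 177, 172 and 185 CPM in WT (log2 fold change -2.99 ± 0.08 (SE), edgeR adjusted p = 3.3e-10), and the basic chitinase Manes.11G106100, with the highest mean CPM, averaged 245 ± 10.996 CPM in HOE1 and 267 ± 15.7 CPM in WT and was not called (edgeR adjusted p = 0.173). WRKY factors, regulators of defence, gave 31 higher and 37 lower of 85. WRKY40, Manes.03G009500, averaged 51.5 ± 2.09 CPM in HOE1 and 16.8 ± 1.81 CPM in WT. WRKY71, Manes.01G128000, averaged 2.71 ± 0.416 CPM in HOE1 and 20.9 ± 0.782 CPM in WT.

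Ethylene genes leaned lower. The list of ethylene synthesis and response had 24 of 36 tested members lower and 4 higher, with a median of -0.83; its word pattern also took in 2 methylenetetrahydrofolate reductases. Ethylene-forming enzyme, the last step of ethylene synthesis, had in Manes.12G069300 levels of 31.6, 33.3 and 28.8 CPM in HOE1, against 155, 157 and 158 CPM in WT (log2 fold change -2.33 ± 0.06 (SE), edgeR adjusted p = 3.3e-10). Ethylene response factor 1, Manes.15G039700, averaged 3.95 ± 0.355 CPM in HOE1 and 18.7 ± 0.860 CPM in WT. The member with the highest mean CPM, the EIN3-type factor Manes.04G052000, averaged 1684 ± 28.9 CPM in HOE1 and 1563 ± 7.02 CPM in WT and was not called (edgeR adjusted p = 0.105). Senescence markers moved with them: 7 of 8 tested were lower and 1 was higher, 8 of 23 matches had no reads in the 6 libraries, and the sums were 368 to 375 CPM in HOE1 and 1333 to 1424 CPM in WT. The protease SAG12, the usual marker of senescing leaves, had in Manes.16G038400 levels of 35.6, 41.9 and 37.2 CPM in HOE1, against 500.2, 503 and 515 CPM in WT (log2 fold change -3.73 ± 0.08 (SE), edgeR adjusted p = 1.3e-10).

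Other hormone lists held large changes on both sides. In abscisic acid signalling, 20 of 38 tested members were higher, 8 lower and 10 not called; of a pair of HAI3-type phosphatases that damp the signal, Manes.06G158800 averaged 4.02 ± 0.608 CPM in HOE1 and 63.3 ± 1.89 CPM in WT. Manes.01G168600 averaged 7.45 ± 0.754 CPM in HOE1 and 66.6 ± 2.06 CPM in WT. The receptor gene PYR1-like 6, Manes.07G135200, averaged 7.48 ± 0.312 CPM in HOE1 and 3.61 ± 0.439 CPM in WT. LEA proteins and dehydrins, which protect drying cells, had 34 of 52 lower and 3 higher (5 without WT library 1), with sums of 846 ± 32.8 CPM in HOE1 and 1373 ± 167 CPM in WT; the dehydrin Manes.09G138100 averaged 163 ± 3.32 CPM in HOE1 and 343 ± 12.5 CPM in WT. ERD15, Manes.07G136300, an early dehydration gene, averaged 1442 ± 67.4 CPM in HOE1 and 661 ± 11.7 CPM in WT and was higher. For auxin response and Aux/IAA factors, 25 of 48 tested members were higher, 8 lower and 15 not called, and for gibberellin genes 10 of 20 tested members were higher, 5 lower and 5 not called. Gibberellin 2-oxidase 8, which inactivates the hormone, averaged 4.39 ± 0.108 CPM in HOE1 and 36.3 ± 0.530 CPM in WT in Manes.10G069000, and gibberellin 2-oxidase 6, Manes.03G208300, 7.12 ± 0.657 CPM in HOE1 and 1.67 ± 0.341 CPM in WT. Allene oxide synthase, a committed step of jasmonate synthesis, had in Manes.05G166200 levels of 50.4, 47.1 and 47.3 CPM in HOE1, against 185, 188 and 184 CPM in WT (log2 fold change -1.94 ± 0.05 (SE), edgeR adjusted p = 3.3e-10); in the jasmonate list as a whole, 14 of 35 tested members were higher, 10 lower and 11 not called.

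Transcription factor families differed in their lean. Of tested homeobox genes, 57 were higher, 22 lower and 23 not called, with a median of 0.39. BEL1-like homeodomain 1, Manes.09G045600, averaged 1398 ± 25.6 CPM in HOE1 and 1067 ± 29.7 CPM in WT; the KNOX gene Manes.16G003000, a meristem regulator, averaged 6.30 ± 0.582 CPM in HOE1 and 1.01 ± 0.318 CPM in WT; and homeobox 7, Manes.05G018700, a drought-responsive factor, had 138, 137 and 140.3 CPM in HOE1, against 590.1, 591 and 612 CPM in WT (log2 fold change -2.11 ± 0.06 (SE), edgeR adjusted p = 4.3e-10). Among GATA factors, 10 of 29 tested members were higher, 11 lower and 8 not called: the GNC-type gene Manes.16G102600, which promotes chloroplast growth, averaged 686 ± 7.01 CPM in HOE1 and 208 ± 8.65 CPM in WT. GATA 9, Manes.10G046800, averaged 17.004 ± 1.72 CPM in HOE1 and 72.0 ± 1.11 CPM in WT. Of a pair of bZIP family genes, Manes.08G134500 averaged 168 ± 7.51 CPM in HOE1 and 56.0 ± 1.15 CPM in WT. Manes.09G153300 averaged 123 ± 3.57 CPM in HOE1 and 36.5 ± 1.04 CPM in WT. Heat shock factor 4, Manes.13G124500, averaged 69.6 ± 0.454 CPM in HOE1 and 281 ± 4.84 CPM in WT. MYB and MYB-like factors (37 higher and 36 lower of 117), NAC factors (21 and 24 of 65) and ERF and AP2 factors (32 and 40 of 111) were near the background shares in both directions, and bHLH factors leaned higher, with 50 higher and 33 lower of 122.

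Ribosomal proteins and the respiratory chain were lower by small steps in many genes. Of 425 ribosomal protein genes, 395 were tested, and 46 were higher and 248 lower, with a median of -0.41. Of these, 20 were lower by 2-fold or more, and the summed level was 24722 ± 97.3 CPM in HOE1 and 30178 ± 705 CPM in WT. The member with the highest mean CPM, ribosomal protein L19e Manes.05G000100, averaged 785 ± 85.5 CPM in HOE1 and 622 ± 73.1 CPM in WT and was not called (edgeR adjusted p = 0.108), and a plastid-type 30S protein, Manes.05G197600, averaged 352 ± 6.48 CPM in HOE1 and 128 ± 2.50 CPM in WT and was higher. Genes of the mitochondrial respiratory chain gave 43 of 64 lower and 8 higher, with sums of 1771 ± 12.3 CPM in HOE1 and 2459.5 ± 46.2 CPM in WT. A cytochrome c oxidase subunit, Manes.05G069800, averaged 13.7 ± 1.08 CPM in HOE1 and 31.3 ± 1.73 CPM in WT. Alternative oxidase 2, Manes.06G012700, averaged 117 ± 2.61 CPM in HOE1 and 195 ± 9.62 CPM in WT. Of proteasome subunits, 5 of 43 tested members were higher, 23 lower and 15 not called, with 9 higher when HOE8 library 1 was left out of the shared fit or only HOE1 and WT libraries were fitted, and 8 with the size factors of DESeq2. Not every part of gene expression followed: for tRNA synthetases, 27 of 50 tested members were higher, 12 lower and 11 not called. For pentatricopeptide repeat proteins, which edit and process organelle RNA, 46 of 285 tested members were higher, 85 lower and 154 not called. Their median was -0.12, and their share of higher genes, 16.1%, was below the background of 31.7%. Translation factors gave 27 higher and 46 lower of 134, with a median of -0.06. Their share of lower genes was near the background, and their share of higher genes, 20.1%, was below it. Of the plastid translation factors, Manes.02G035000, which overlaps Manes.02G035100, averaged 163 ± 2.78 CPM in HOE1 and 73.3 ± 1.67 CPM in WT, Manes.15G101300 averaged 312 ± 3.73 CPM in HOE1 and 131 ± 1.64 CPM in WT, and both were higher. The cytosolic elongation factor 2 match Manes.06G172600 was lower, at 474 ± 7.28 CPM in HOE1 and 847 ± 18.5 CPM in WT.

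In the nucleus, genes for chromatin enzymes leaned higher while core histones did not. Of histone acetyl and methyl modifiers, 39 of 61 tested members were higher, 6 lower and 16 not called, with a median of 0.37. The CBP-family acetyltransferase Manes.01G107500 had 168, 171 and 170.3 CPM in HOE1, against 78.6, 70.6 and 80.6 CPM in WT (log2 fold change 1.15 ± 0.12 (SE), edgeR adjusted p = 8.3e-06). SET domain protein 25, Manes.05G113300, averaged 54.6 ± 0.342 CPM in HOE1 and 24.4 ± 0.865 CPM in WT. Histone deacetylase 6, Manes.14G061800, averaged 36.9 ± 1.80 CPM in HOE1 and 48.7 ± 2.60 CPM in WT and was lower. Of chromatin remodelling helicases, 14 of 24 tested members were higher, 4 lower and 6 not called; PICKLE, Manes.16G127700, averaged 75.4 ± 2.42 CPM in HOE1 and 45.1 ± 1.05 CPM in WT. Core histones, the partners of linker histones in chromatin, had 33 of 51 not called, 7 higher and 11 lower, with a median of -0.06. Without HOE1 library 3 the core histone counts were 4 higher and 7 lower, without WT library 3 there were 4 higher, and the median was -0.11 without HOE1 library 1 and -0.12 without WT library 3. The member with the highest mean CPM, Manes.18G064500, averaged 335 ± 12.9 CPM in HOE1 and 348 ± 7.11 CPM in WT. RNA-binding RRM proteins (63 higher and 31 lower of 159) and DEAD-box helicases (19 and 3 of 31) also leaned higher, and the lower DEAD-box genes were 0 or 1 when any HOE1 library, WT library 1 or WT library 2 was left out. In the cell cycle list, 40 of 92 tested members were higher, 19 lower and 33 not called, but its leading genes, Manes.01G151800 and Manes.05G131200, are rhodanese-domain proteins named for a phosphatase fold; of named cyclins, cyclin P2;1, Manes.13G073200, averaged 10.3 ± 1.02 CPM in HOE1 and 3.12 ± 0.364 CPM in WT. Cyclin D1;1, Manes.01G196900, averaged 5.50 ± 0.921 CPM in HOE1 and 11.4 ± 0.863 CPM in WT. Gene length, which went with the direction of change over all genes tested, differed between these groups: the median length was 2843 bases in the modifiers, 4838 bases in the remodelling helicases and 732 bases in the core histones, against 1707 bases over all genes tested. It was 931 bases in the ribosomal proteins and 752 bases in the lipid-transfer proteins. The part of length in these results was not tested.

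Redox and chaperone genes were mixed. Among superoxide dismutases, catalases and ascorbate peroxidases, which remove reactive oxygen, 11 of 21 tested members were higher, 7 lower and 3 not called. Catalase 2, Manes.05G130500, had 4092, 3899.7 and 4416 CPM in HOE1, against 3900.1, 3896 and 3948 CPM in WT and was not called (edgeR adjusted p = 0.126), while its second copy, Manes.02G113300, had 432, 450.4 and 447 CPM in HOE1, against 127, 129 and 126 CPM in WT (log2 fold change 1.80 ± 0.05 (SE), edgeR adjusted p = 3.1e-10). Thioredoxin H-type 7, Manes.01G192100, averaged 5.70 ± 1.32 CPM in HOE1 and 86.4 ± 3.74 CPM in WT. Thioredoxin M-type 4 of the plastid, Manes.02G173600, averaged 185 ± 3.55 CPM in HOE1 and 43.1 ± 2.32 CPM in WT. Glutathione S-transferase PHI 9, Manes.02G089200, averaged 243 ± 4.09 CPM in HOE1 and 1064 ± 29.9 CPM in WT. Metallothioneins, small metal-binding proteins, were among the most abundant transcripts per kilobase in WT: Manes.15G086700 stood at 2130.3 CPM per kilobase in HOE1 and 2769 in WT, with a log2 fold change of -0.38 (edgeR adjusted p = 0.003). The DnaJ chaperones had 51 of 128 higher and 30 lower, with Manes.11G068500 at 1369, 1309 and 1346 CPM in HOE1, against 314, 323 and 308 CPM in WT (log2 fold change 2.09 ± 0.07 (SE), edgeR adjusted p = 1.1e-09). The small heat shock protein Manes.10G020100 had 501, 486 and 497 CPM in HOE1, against 90.7, 87.6 and 91.4 CPM in WT (log2 fold change 2.46 ± 0.74 (SE), edgeR adjusted p = 0.0133); HOE8, whose libraries share the fit, averaged 47.0 ± 40.3 CPM.

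Genes called the same way at 2-fold or more lay next to each other in places. Runs of at least 4 neighbouring tested genes numbered 9 among higher genes, with 41 genes in all and 6 in the longest, and 14 among lower genes, with 57 genes and 5 in the longest. Several were rows of related copies, whose reads may be shared. On chromosome 8 (33126295 to 33178834), 3 lipid transfer protein genes and expansin A8 had log2 fold changes of -4.28 to -2.91; Manes.08G171800 had 46.0, 46.8 and 44.9 CPM in HOE1, against 898, 877 and 896 CPM in WT and Manes.08G171700 36.4, 39.7 and 38.7 CPM in HOE1, against 341, 335 and 323 CPM in WT. On chromosome 7 (2521526 to 2633470), 5 beta glucosidase-type genes and a receptor kinase were higher by 1.43 to 2.05, with Manes.07G027800 at 33.3, 32.5 and 33.6 CPM in HOE1, against 12.4, 11.97 and 12.5 CPM in WT. A row on chromosome 5 (5950879 to 6008239) held 3 vicilin-type cupins, a kinase and a DNAse I-like gene. The cupin with the fewest reads, Manes.05G079000, reached at most 1.13 CPM in an HOE1 library. Rows of NB-ARC receptors on chromosome 2 (25363648 to 25618156; log2 fold changes 1.08 to 1.54), of receptor-like proteins on chromosome 6 (12185471 to 12254821; 1.46 to 2.99) and of BURP-domain genes matching the drought gene RD22 on chromosome 6 (26257067 to 26352692; 1.62 to 2.60) were higher. Kinase rows on chromosome 4 stood side by side (25745830 to 25828514 and 25838005 to 25934153), with Manes.04G127100 at 257, 259.7 and 253 CPM in HOE1, against 90.8, 89.5 and 89.5 CPM in WT, and a related row on chromosome 11 (3366133 to 3700950) was higher too. Rows of tau glutathione S-transferases on chromosome 9 (16769109 to 16805393; -1.73 to -1.33), of phosphate-responsive genes on chromosome 2 (11247468 to 11259310; -1.62 to -1.21) and of oxygenases matching senescence-related gene 1 on chromosome 17 (20283175 to 20364789; -2.95 to -1.44) were lower. The share of all tested genes past 2-fold was 8.5% higher and 10.8% lower; how many such runs these shares would give by themselves was not computed.

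**Figure D5:**
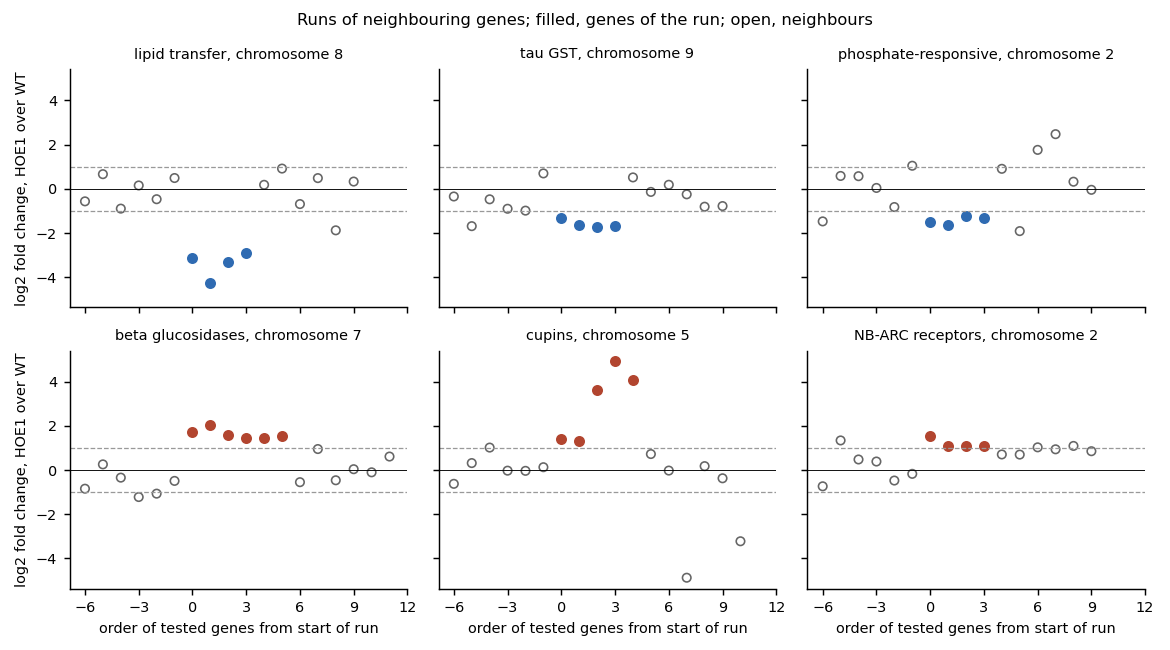
Log2 fold change of HOE1 over WT (vertical axis) by order of tested genes along the chromosome (horizontal axis, 0 at the first gene of the run) for 6 runs and up to 6 tested neighbours on each side; filled points are the genes of the run and open points its neighbours. The dashed lines mark 2-fold, and the neighbours outside each run mostly lie between them.

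Few genes had reads in 1 group only. In 128 genes every HOE1 library had reads and no WT library did, and in 126 genes the reverse held; 21 and 9 of them passed the count filter and were tested. A mean of at least 1 CPM in the group with reads was found in 8 of the first kind and 8 of the second, and 0 of either kind reached 5 CPM. Manes.07G109800, described as a ribonuclease H-like protein, averaged 1.75 ± 0.717 CPM in HOE1 leaves and had 0 reads in WT leaves, at least 27.3-fold higher against 3 reads over the WT libraries (edgeR adjusted p = 5.2e-04). It had 0 reads in HOE8 as well, so it passed the count filter through its HOE1 libraries alone. The adjusted p adds no support beyond that choice. Manes.08G121900, a GPI-anchored glycoprotein, had 0 reads in HOE1 leaves and averaged 1.03 ± 0.470 CPM in WT leaves, at least 15.6-fold lower; it did not pass the count filter and was not tested. These 2 genes were chosen after their values were seen.

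Set beside HOE8, the leading genes of HOE1 were of several kinds. Both lines were set against the same WT libraries, so their values are given side by side, and the difference between the lines was tested directly as HOE8 minus HOE1. The linker histone gene Manes.08G136300 had 3345 ± 261 CPM in HOE8, and the HOE8 minus HOE1 log2 difference was -0.46, edgeR adjusted p = 3.0e-05. BT1, Manes.14G056500, had 31.1 ± 4.27 CPM in HOE8, below WT, against 1864 ± 6.93 CPM in HOE1 and 179.7 ± 5.50 CPM in WT (HOE8 minus HOE1 -5.90, edgeR adjusted p = 4.3e-12). Asparagine synthetase, Manes.02G212800, had 118 ± 3.19 CPM in HOE8, likewise below WT (-4.90, edgeR adjusted p = 4.7e-13), and so did the kelch F-box gene Manes.09G040100, at 8.42 ± 1.07 CPM (-6.53, edgeR adjusted p = 4.0e-12), and beta xylosidase Manes.15G006300, at 174 ± 22.2 CPM (-3.94, edgeR adjusted p = 2.5e-11). For these genes HOE1 lay above WT and HOE8 below it. The neutral invertase Manes.08G109700 was high in both lines, with 95.7 ± 0.465 CPM in HOE8 (0.28, edgeR adjusted p = 0.0091), as was the beta glucosidase Manes.10G149500, at 131 ± 2.16 CPM (1.41, edgeR adjusted p = 2.8e-09). Rubisco activase, Manes.10G027600, stood much higher in HOE8, at 14761 ± 468 CPM (2.85, edgeR adjusted p = 2.0e-12). Losses shared by both lines included lipid transfer protein 3, Manes.14G166500, at 56.5 ± 5.68 CPM in HOE8 (0.54, edgeR adjusted p = 3.3e-05), and the CYP79B2 match Manes.12G133500, at 0.125 ± 0.0413 CPM (-0.79, edgeR adjusted p = 0.338). Both lines had only a few reads of the CYP79B2 match, so the test between them says little.

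Family medians were alike in the lines for some families and unlike for others. For photosystem genes, the median log2 fold change against WT was 1.56 in HOE8 and 0.74 in HOE1, and for the Calvin cycle it was 0.91 in HOE8 and 0.80 in HOE1. The median of B-box factors was 2.29 in HOE8 and 0.47 in HOE1, and that of trehalose genes -0.47 in HOE8 and 0.51 in HOE1. Ribosomal proteins had a median of -0.09 in HOE8 and -0.41 in HOE1, and core histones one of 0.88 in HOE8 and -0.06 in HOE1. Over all genes tested the medians were -0.05 in HOE8 and -0.0047 in HOE1, and 71.9% of genes were called in HOE8 against WT, beside 64.4% in HOE1. Between the lines, 66.5% of genes were called. Differences between the lines' family medians were not tested. The morning clock gene LHY, of which Manes.01G239000 is a match, averaged 1252 ± 160.0 CPM in HOE8, 8.62 ± 0.248 CPM in HOE1 and 5.33 ± 0.498 CPM in WT, and GIGANTEA, Manes.18G095000, averaged 1.05 ± 0.298 CPM in HOE8, 466 ± 5.25 CPM in HOE1 and 480.4 ± 6.86 CPM in WT; the part of the clock in these values was not tested.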

How the data were processed

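Leaf RNA of 9 libraries was sequenced, 3 each of HOE1, HOE8 and WT. Per the submitters' processing notes, the tools were HISAT2 2.0.4 and StringTie 1.3.0. Genome build, annotation, counting settings and use of strand were not given in the sources used here. For each of 33033 genes, the deposited table gives every library a read count in whole numbers beside its FPKM. Gene length was not read from an annotation. It was taken as the median, over libraries, of the length implied by count, library total and deposited FPKM. In 100.0% of the 242922 FPKM values above 0, the implied length lay within 0.1% of that median. This compares the libraries with each other and not with annotated lengths. The FPKM values were used only for gene length, and so for levels per kilobase.

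Counts were analysed in R 4.3.3 with edgeR 4.0.16: genes were kept by filterByExpr at a minimum count of 10, TMM scaled the libraries, and a single quasi-likelihood fit to all 9 gave HOE1 minus WT and HOE8 minus HOE1, two-sided, with Benjamini-Hochberg adjustment over the 23434 genes tested and a threshold of 0.05. All tests are from that model unless DESeq2 1.42.0 is named, and SE is the absolute log2 fold change over the square root of F. On simulated counts for HOE1 against WT (22496 genes tested), 61.2% of 67 genes changed 1.5-fold were called. So were 100% of 67 changed 2-fold and 98.5% of 66 changed 4-fold. Of 22296 genes left unchanged, 8 were called. This simulation altered only a small part of the genes, whereas 64.4% were called in the data. Its rates therefore hold for the simulated counts and are not error rates of the HOE1 and WT comparison. Recovery was not split by gene level. CPM are TMM-scaled and not adjusted for gene length, so the member of a family with the highest mean CPM is the one with the most reads, and levels of different genes are set side by side only per kilobase. Totals of 13923803 to 16378389 reads in HOE1 and WT set the precision, and counting intervals and floors (95%, 3 reads) cover counting error only.

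The genes named are linker histones; the 12 genes in each direction with the largest log2 fold change among called, described genes without overlap between groups and with at least 5 CPM in the higher group; the 10 with the largest difference in CPM in each direction; in each family up to 2 called genes in each direction and the member with the highest mean; markers matched by Arabidopsis gene; and genes of runs of neighbours. Fewer were named than the rule allows. The members, the families, the marker lists and the tests were chosen with earlier results of these data known. The families come from words of the deposited description, which holds the Arabidopsis annotation. Replicate numbers did not pair the libraries: the deviations of same-numbered HOE1 and WT libraries from their group means correlated at -0.011, -0.0080 and -0.040. The alternatives were size factors and the test of DESeq2, other filters, fits on fewer libraries, a replicate block, each HOE1 and WT library left out and HOE8 library 1 left out. Leaving out HOE8 library 2 or 3 was added after seeing the data. No identifier matched the RefSeq gene table (0 matches), so no sequence is shown.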

Additional observations from a re-analysis of the deposited data

Results flagged for a closer look

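The genes below were picked out because HOE1 and HOE8, set against the same WT libraries, were called in opposite directions and also differed from each other in the direct test of HOE8 minus HOE1 by edgeR. This held for 19 of the 154 genes tested that the text names. In 16 of them HOE8 was below WT and HOE1 above it. The share of such genes over all genes tested was not computed. Many of the genes were named for a large change in HOE1, so these counts do not describe the lines as a whole. The HOE8 minus HOE1 log2 differences were -6.53 in the kelch F-box gene Manes.09G040100, -5.93 in the DUF506 gene Manes.16G028500, -5.90 in BT1 (Manes.14G056500), -5.78 in the DnaJ gene Manes.11G068500 and -4.90 in asparagine synthetase (Manes.02G212800). They were -4.28 in the cupin Manes.05G079100, -4.05 in ERD15 (Manes.07G136300), -3.94 in BXL1 (Manes.15G006300), -3.21 in the BGAL1 match Manes.16G102400, -3.16 in WRKY40 (Manes.03G009500) and -3.07 in the bZIP gene Manes.08G134500. Smaller differences were -2.56 in CCR1 (Manes.17G101400), -2.03 in the beta-amylase Manes.15G060100, -1.55 in the alpha-amylase match Manes.05G097100, -1.28 in the CYP81D-type gene Manes.13G116700 and -1.27 in BEL1-like homeodomain 1 (Manes.09G045600). In the other 3 genes HOE8 was above WT and HOE1 below it: 6.99 in the antenna gene Manes.01G175600, 4.22 in the B-box gene Manes.13G073800 and 2.27 in GATA 9 (Manes.10G046800). HOE8 lay close to WT in some of these genes, so the difference there came mostly from HOE1. The log2 fold change of HOE8 against WT was -0.19 in Manes.05G079100, -0.18 in Manes.05G097100, -0.16 in Manes.15G060100 and 0.19 in Manes.10G046800. In the others it was larger in size. Of the 19 HOE8 minus HOE1 differences, the least by edgeR had an adjusted p of 1.5e-08. Several of these genes are known in Arabidopsis to follow the day, and the LHY and GIGANTEA matches given above differed widely between HOE8 and HOE1; the part of the clock was not tested.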

How the results depend on the processing

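Every alternative kept each of the counts over all genes within 1.5 times the count reported. Genes higher in HOE1 numbered 6836 to 8043 and genes lower 7078 to 8221, and at 2-fold or more 1891 to 2213 were higher and 2399 to 2790 lower. With 1 library left out the ranges were 6836 to 8043, 7078 to 8221, 1990 to 2035 and 2541 to 2597. Genes named in the text that differed between HOE8 and HOE1 numbered 127, and 121 to 131 over the alternatives. With the replicate number as a block, 7323 genes were higher and 7520 lower, 1981 and 2524 of them by 2-fold or more, although the numbers do not pair the libraries; the best-correlated WT library of each HOE1 library bore another number. No called gene named in the text changed direction under any alternative, DESeq2 included. None that had an adjusted p under an alternative lost its call there. A gene left without an adjusted p under an alternative was counted as unchanged, so a call lost in that way would not show. A call was gained by the EIN3-type gene Manes.04G052000 (log2 fold change 0.11) and the L19e gene Manes.05G000100 (0.34) when only HOE1 and WT libraries were fitted or HOE8 replicate 1 was left out, and by catalase 2, Manes.05G130500 (0.12), without HOE1 replicate 2. Of 3330 family counts under an alternative, 39 left the range of 1.5 times. Of 1665 family medians, 464 moved by more than the spread between replicates. Over all 111 families, moved or not, the median shift under any one alternative was at most 0.0235 on the log2 scale. The largest shift was 0.70, without HOE1 replicate 2. Medians near 0, such as those of WRKY factors and ABC transporters, changed sign between alternatives. At this depth a gene under about 0.2 CPM rests on 3 reads or fewer in a library. The cause of the shifts was not tested.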

Other observations

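Families were also defined by an identical description, a grouping that the text has not used. Their genes may belong to families given above too, as with the leucine-rich repeat kinases, so these values are not separate evidence. Heavy metal transport proteins, small chaperones that carry metals, had 26 of 48 tested members higher and 13 lower, with a median log2 fold change of 0.47. ARM repeat proteins, a scaffold fold found in many E3 ligases, had 66 of 126 higher and 20 lower. Hydroxyproline-rich glycoproteins of the cell surface had 4 of 43 higher and 23 lower, and exostosin-family proteins, which include glycosyltransferases of wall polysaccharides, had 4 of 33 higher and 18 lower. Glycosyl hydrolases of family 17, which cut callose and related glucans, had 7 of 35 higher and 17 lower. Mitochondrial transcription termination factor proteins, which act on organelle genes, had 6 of 44 higher and 23 lower, with a median of -0.38. Aspartyl proteases had 8 of 51 higher and 24 lower. Leucine-rich repeat protein kinases of the cell surface had 31 of 120 higher and 50 lower, with a median of -0.27. Amino acid transporters had 9 of 35 higher and 18 lower. Over all genes tested the shares were 31.7% higher and 32.7% lower.

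Some genes had 1 library far from the other libraries of its group. Genes with a library more than 10-fold from the mean of the other 2, which themselves lay within 2-fold, numbered 21, 17 and 20 for HOE1 libraries 1, 2 and 3, against 23, 17 and 22 for WT libraries 1, 2 and 3, and in 17, 15 and 17 of the HOE1 cases and 19, 16 and 18 of the WT cases the odd library was the low one. Levels were compared as log2 of CPM plus 0.5. CP12, a regulator of the Calvin cycle, had in Manes.05G003500 13.4, 618 and 1.10 CPM in HOE1 leaves, against 628, 1.49 and 599 CPM in WT leaves. Photosystem I subunit D-2 had in Manes.02G143000 234, 238 and 0.647 CPM in HOE1 leaves, against 159, 166 and 7.34 CPM in WT leaves. Manes.15G039800, which has no description, had 879, 921 and 54.2 CPM in HOE1 leaves, against 9.88, 6839.9 and 6933 CPM in WT leaves. The HOE1 and WT libraries of all 3 genes overlap, and none of the 3 was called (edgeR adjusted p = 0.631, 0.812 and 0.0998). These genes were chosen after their values were seen, and what sets a library apart in them was not tested.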
